A study of Mus musculus with 3 samples.

Results

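The genes described here are 8 that encode the contractile apparatus of smooth muscle and its regulator, namely Acta2, Myh11, Tagln, Actg2, Cnn1, Des, Myocd and Lmod1. They were taken by symbol from the deposited tables and followed across smooth muscle, pericyte, fibroblast and other cell classes of the mouse lung. All 8 were present in both tables, which share 21507 genes. The data are 3 droplet libraries of lung from wild type C57Bl/6J mice, a standard inbred strain, made with 10x Chromium 3′ v3 kits, which read transcript 3′ ends and give each cell or nucleus a barcode. In 1 library the droplets held whole cells, freed from fresh lung with collagenase and DNAse and cleaned on an Optiprep gradient. In the other 2 libraries they held nuclei, released from snap-frozen lung of adult animals with Nuclei EZ Lysis buffer. Cells against nuclei and fresh against frozen tissue therefore cannot be told apart. The labels name no treatment, no individual animals and no age for those used for cells. Because the cells came from 1 library, the tests reported here take their error from how far the 2 nucleus libraries differ. That difference may be technical, and variation among preparations of cells was not measured.

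In smooth muscle, filaments of α-actin and γ-actin slide along filaments of smooth muscle myosin. Calponin and transgelin bind the actin filaments, leiomodin starts new ones, and desmin forms the intermediate filaments that tie the apparatus together. Most of these genes are switched on by serum response factor, which binds a short A/T-rich element called the CArG box together with its coactivator myocardin. In the lung this programme is known from the walls of arteries, veins and airways, and in a weaker form from pericytes, the contractile cells wrapped around capillaries.

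The CArG box is shown because it is the element that these genes are known to share. RefSeq promoter sequences (assembly GRCm38.p6) were at hand for 4 of the 8 genes, Acta2, Cnn1, Des and Lmod1. The 250 bases before the start were searched for CC, then 6 bases that are A or T, then GG, a pattern that reads the same way on both strands. No exact match stood in the 4 windows, and 1.47% of the 32817 promoters in the table held one. With 1 G or C allowed among the 6 core bases, Acta2 had 2 matches and the other 3 genes had none, against 8.6% of all promoters with at least 1. The matches are printed 5′ to 3′ on the minus strand with 10 bases on each side, the 10 bases of the match being in capitals.
Acta2, 84 bases before the RefSeq start, chr19:34255438-34255467: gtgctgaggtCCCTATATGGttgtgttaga
Acta2, 34 bases before the RefSeq start, chr19:34255388-34255417: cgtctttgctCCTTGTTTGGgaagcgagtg
Both lie inside the Acta2 locus as placed by GENCODE M21, which runs to base 34255590 and so beyond the RefSeq start. A match describes the letters only, and no binding was measured.

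On the same build, GENCODE M21 placed the actin genes Acta2 at chr19:34241090-34255590 and Actg2 at chr6:83512905-83536265, both on the minus strand. The myosin heavy chain gene Myh11 lay at chr16:14194535-14291372 and the coactivator gene Myocd at chr11:65176561-65269989, also on the minus strand. Cnn1 (chr9:22099216-22109630), Des (chr1:75360329-75368579) and Lmod1 (chr1:135324807-135368065) were on the plus strand, and Tagln (chr9:45929619-45936058) on the minus strand. Tagln overlaps Pcsk7 and Gm48529, Des overlaps Gm15179 and Lmod1 overlaps Gm22796, in each case on the other strand, and whether counting used strand is not given in the sources used here. The 8 loci ran from 6440 bases (Tagln) to 96838 bases (Myh11), and sequence outside annotated exons took from 54.5% of the locus (Des) to 93.3% (Actg2).

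After filtering, 11934 cells, 6787 nuclei of replicate 1 and 9626 nuclei of replicate 2 were kept, with 35962788, 27805943 and 26319832 unique molecular identifiers (UMIs, each standing for 1 captured transcript). Barcodes were clustered without the 8 genes and the clusters named from other markers, with "-like" added to every name. In 14 classes each library held at least 50 barcodes. The smooth muscle-like class held 155 cells and 140 and 86 nuclei, and the pericyte-like class 522 cells and 280 and 211 nuclei. In the smooth muscle-like class all 13 markers of that list were detected in both nucleus libraries and 12 in cells, at a summed level between 4331 and 5197 CPM (counts scaled by the UMI total of the class), against 576.4 to 837.2 CPM in the pericyte-like class. The class was not made up alike in the libraries. Cells formed 1 cluster led by Hhip, Kctd16, Aspn and Lgr6, while nuclei formed 2, one with Trp63, Stac, Synpo2 and Ntrk3 among its leading genes (78 and 41 nuclei) and one led by Kctd16, Hhip and Lgr5 (62 and 45 nuclei). Each pair of libraries shared between 20 and 24 barcode sequences, at most 0.309% of the smaller library.

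The smooth muscle-like class had the highest level of 5 of the 8 genes (Acta2, Myh11, Tagln, Actg2 and Lmod1) in all 3 libraries. Counting each gene in each library, this class came first in 19 of 24 cases, and the other 5 cases belonged to Cnn1, Des and Myocd. First place was lost by Myh11 in cells when the 8 genes were among the clustering genes, and by Tagln in nuclei of replicate 2 in means over barcodes. It was gained by Cnn1 and Myocd in nuclei of replicate 2 under other clusterings given below. These orders are descriptions, with no test between classes. The intervals given are exact Poisson 95% intervals of the summed counts and cover counting error only.

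**Figure D1:**
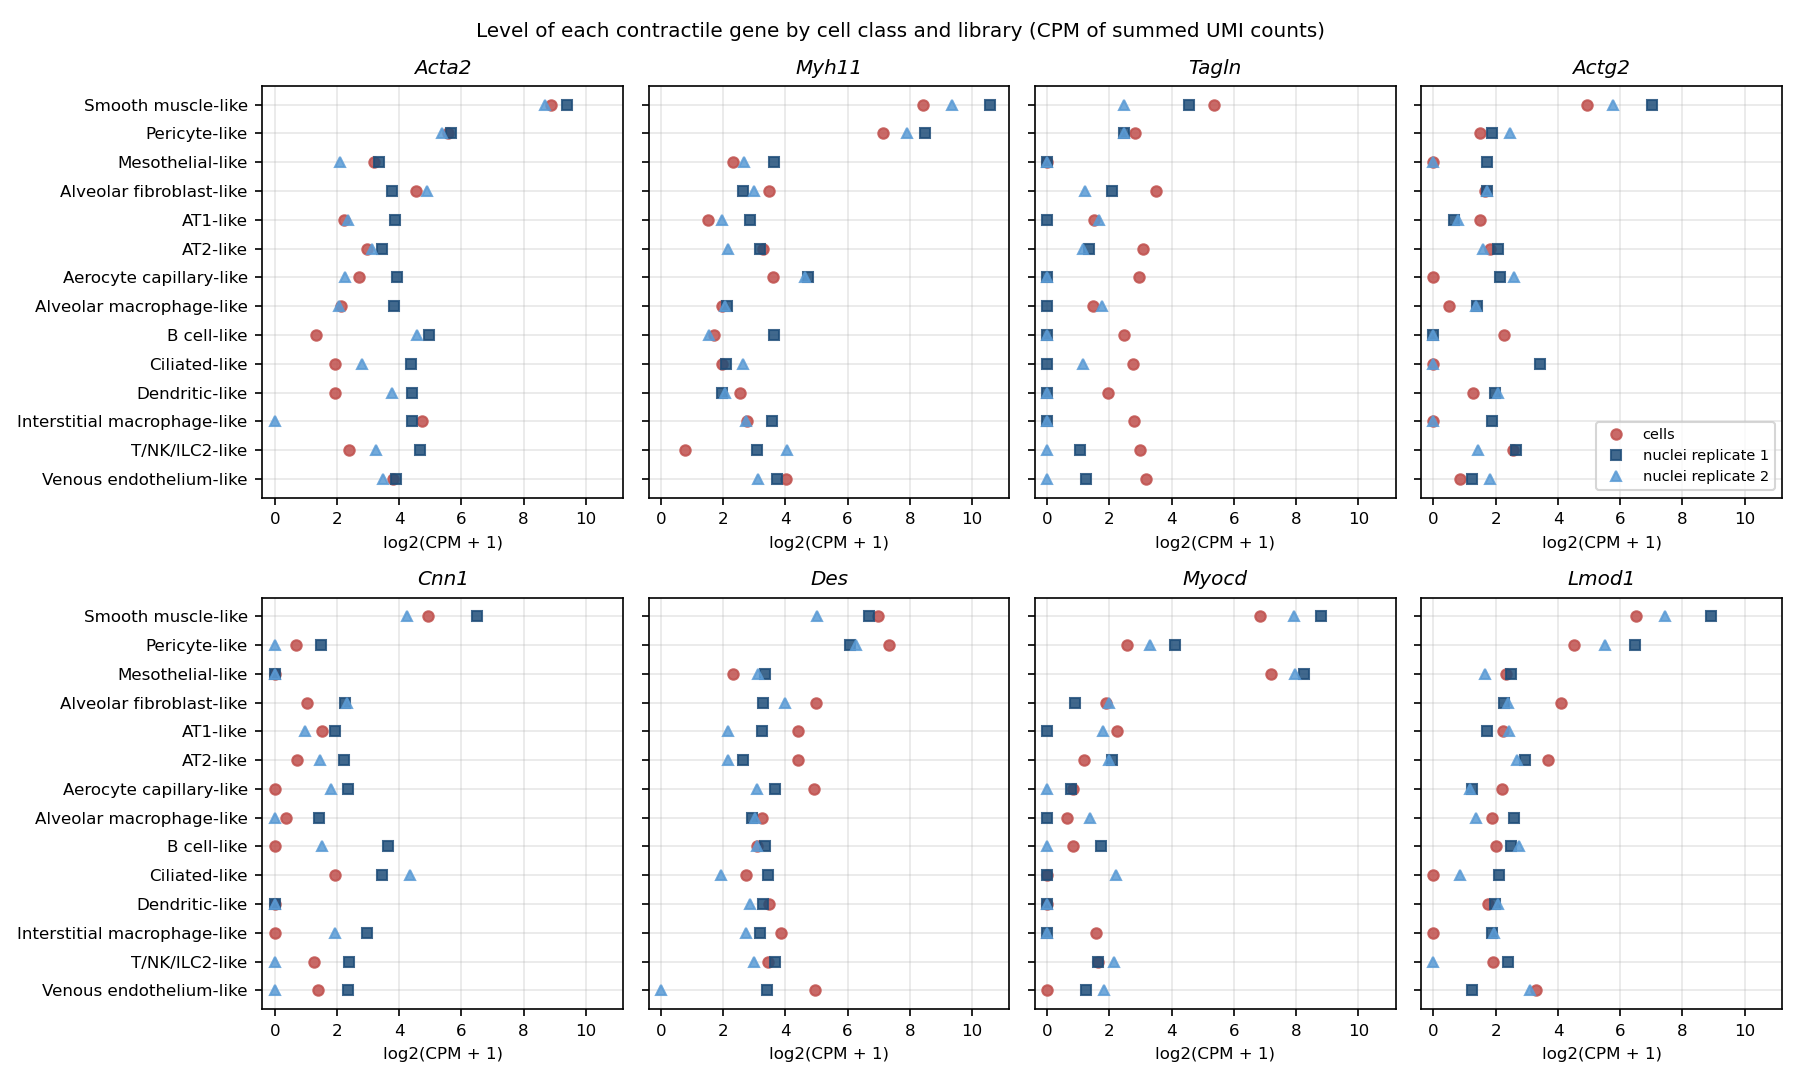
Level of the 8 genes, as log2(CPM + 1) of summed UMI counts, in 14 cell classes; circles are cells, squares nuclei of replicate 1 and triangles nuclei of replicate 2. Myh11 and Des stand out in 2 classes, smooth muscle-like and pericyte-like, and Myocd in smooth muscle-like and mesothelial-like barcodes.

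Acta2, which encodes the α-actin of vascular smooth muscle, stood at 467.7 CPM in smooth muscle-like cells (interval 406.3 to 535.8), 674.3 CPM in nuclei of replicate 1 (606.7 to 747.3) and 414.5 CPM in nuclei of replicate 2 (334.2 to 508.4). Pericyte-like barcodes came second in every library, at 46.6, 50.1 and 40.4 CPM. The gene was thus 10.3 to 13.5 times as high in smooth muscle-like as in pericyte-like nuclei and 10.0 times as high in cells. This ratio depended on the clustering. In cells the 2 levels were 197.7 and 127.4 CPM with the 8 genes among the clustering genes and 286.6 and 101.6 CPM at a clustering resolution of 0.5, and in nuclei of replicate 1 they were 786.5 and 23.6 CPM at a resolution of 2. In the 12 remaining classes the level reached at most 25.3 CPM in cells, 29.8 CPM in nuclei of replicate 1 and 28.6 CPM in nuclei of replicate 2.

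Myh11, the heavy chain of smooth muscle myosin, had 339.5, 1529 and 657.9 CPM in smooth muscle-like cells, nuclei of replicate 1 and nuclei of replicate 2. Pericyte-like barcodes held 138.5, 355.1 and 237.7 CPM, and no other class exceeded 25.4 CPM in any library. The ratio of the classes was 2.45 in cells (1.98 to 3.03), 4.31 in nuclei of replicate 1 (3.81 to 4.87) and 2.77 in nuclei of replicate 2 (2.14 to 3.59). In cells the order turned with the 8 genes among the clustering genes, at 154.9 CPM in smooth muscle-like and 191 CPM in pericyte-like cells, and the levels were 221.2 and 172.7 CPM at resolution 0.5. Together the 2 classes held 65.3%, 83.3% and 63.3% of all Myh11 UMIs of the libraries while making up 5.67%, 6.19% and 3.08% of the barcodes.

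Lmod1, the leiomodin of smooth muscle, had the same order of classes. It had 89.95, 482.9 and 171.2 CPM in the smooth muscle-like class and 22.1, 88.6 and 44.8 CPM in the pericyte-like class, in the order cells, nuclei of replicate 1 and nuclei of replicate 2. The ratios were 4.08 (2.53 to 6.58), 5.45 (4.31 to 6.95) and 3.82 (2.17 to 6.92), whose intervals overlap. In cells the 2 levels were 48.1 and 33.9 CPM with the 8 genes among the clustering genes and 62.8 and 30.5 CPM at resolution 0.5. In the other classes Lmod1 reached 16.04 CPM, in alveolar fibroblast-like cells, and at most 7.67 CPM in nuclei.

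Actg2, the γ-actin best known from the gut wall and bladder, stood out in the smooth muscle-like class alone. Its levels there were 29.2, 128.2 and 54.1 CPM, from 13, 69 and 12 UMIs. The pericyte-like class had 3, 3 and 2 UMIs, and the highest level in any class other than smooth muscle-like was 9.8 CPM, from 3 UMIs of ciliated-like nuclei of replicate 1. The smooth muscle-like interval in each library lay above the value of every other class.

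Tagln, the actin-bundling protein transgelin, was sparse in every library. The smooth muscle-like class held 18 UMIs in cells (40.5 CPM, 23.99 to 63.97), 12 in nuclei of replicate 1 (22.3 CPM, 11.5 to 38.9) and 1 in nuclei of replicate 2 (4.51 CPM, 0.114 to 25.1). In nuclei of replicate 2 this did not stand apart from the 4.48 CPM of pericyte-like nuclei, so its first place there rests on 1 UMI. The ratio of cells to nuclei of replicate 2 was 8.98 (1.42 to 374) by counting error. Of all Tagln UMIs in the cell library 9.38% lay in smooth muscle-like cells, which were 1.3% of the barcodes. The rest was spread thinly, at no more than 10.2 CPM in any other of the 14 classes.

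Cnn1, calponin 1, a late marker of the differentiated muscle cell, had 29.2 CPM in smooth muscle-like cells and 89.2 CPM in nuclei of replicate 1, from 13 and 48 UMIs. In nuclei of replicate 2 the class held only 4 UMIs (18.0 CPM, 4.92 to 46.1). There the highest level was in ciliated-like nuclei, with 48 UMIs in 45 of 659 nuclei (19.3 CPM, 14.2 to 25.6), which was 53.3% of all Cnn1 UMIs of that library. Ciliated-like nuclei of replicate 1 had 3 UMIs (9.8 CPM) and ciliated-like cells 1 UMI (2.85 CPM), with intervals of 2.02 to 28.6 CPM and 0.0722 to 15.9 CPM. The ratio of nuclei of replicate 2 to cells was 6.76 (1.16 to 273). In B, T, macrophage, aerocyte and venous classes of nuclei of replicate 2, Cnn1 lay between 0 and 2.52 CPM. The Acta2 and Myh11 levels of the same ciliated-like nuclei, 6.03 and 5.22 CPM, were within the range of those classes.

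Des encodes desmin, the intermediate filament of muscle. It had 123.7, 102.2 and 31.5 CPM in the smooth muscle-like class and 160.5, 66.2 and 76.2 CPM in the pericyte-like class. The ratio of the 2 was 0.771 in cells (0.565 to 1.03), 1.54 in nuclei of replicate 1 (1.07 to 2.22) and 0.414 in nuclei of replicate 2 (0.155 to 0.948), so the order changed from library to library. Pericyte-like barcodes thus came closest to smooth muscle-like barcodes in Des and Myh11, and stood further below them in Lmod1 and Acta2. Their Actg2 and Cnn1 levels, at most 4.49 and 1.79 CPM, were within the range of classes that should lack these genes (B cell, T/NK/ILC2, alveolar macrophage, aerocyte and venous classes). Their Tagln, at 6.13, 4.47 and 4.49 CPM, was within that range in cells and above its upper end of 1.38 and 2.38 CPM in nuclei, from 5 and 2 UMIs.

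Myocd, the coactivator myocardin, divided the set in another way. Smooth muscle-like barcodes had 112.4, 442.1 and 243.3 CPM, and mesothelial-like barcodes, the lining of the pleura, had 145, 302.5 and 249.3 CPM. The ratio of the first to the second was 0.775 in cells (0.495 to 1.23), 1.46 in nuclei of replicate 1 (1.18 to 1.82) and 0.976 in nuclei of replicate 2 (0.712 to 1.32). In the main clustering, then, only nuclei of replicate 1 told them apart. Pericyte-like barcodes came next, far lower, at 4.9, 16.1 and 8.97 CPM. Mesothelial-like barcodes held 29.0%, 30.8% and 64.6% of all Myocd UMIs of the 3 libraries, from 79 cells and 101 and 322 nuclei.

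The other genes of the set did not accompany Myocd in mesothelial-like barcodes. Tagln and Cnn1 had 0 UMIs there in all 3 libraries, which allows up to 12.1, 6.88 and 3.25 CPM by a limit of 3 counts per library. Actg2 had 0, 1 and 0 UMIs and Lmod1 1, 2 and 2. Acta2 had 8.06, 9.17 and 3.25 CPM, Myh11 4.03, 11.5 and 5.42 CPM and Des 4.03, 9.17 and 7.59 CPM, at or near the levels of classes that should lack them. Mesothelial markers summed to 38.2, 104 and 265.8 CPM in the smooth muscle-like class, with 3, 8 and 9 of 9 detected, and to 33.1, 93.0 and 244.4 CPM in the pericyte-like class. Wt1, 1 of the 9, was at 0 in smooth muscle-like cells and nuclei of replicate 1 and was detected in nuclei of replicate 2. The part of mesothelial RNA in the Myocd level of the smooth muscle-like class was not tested.

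**Figure D2:**
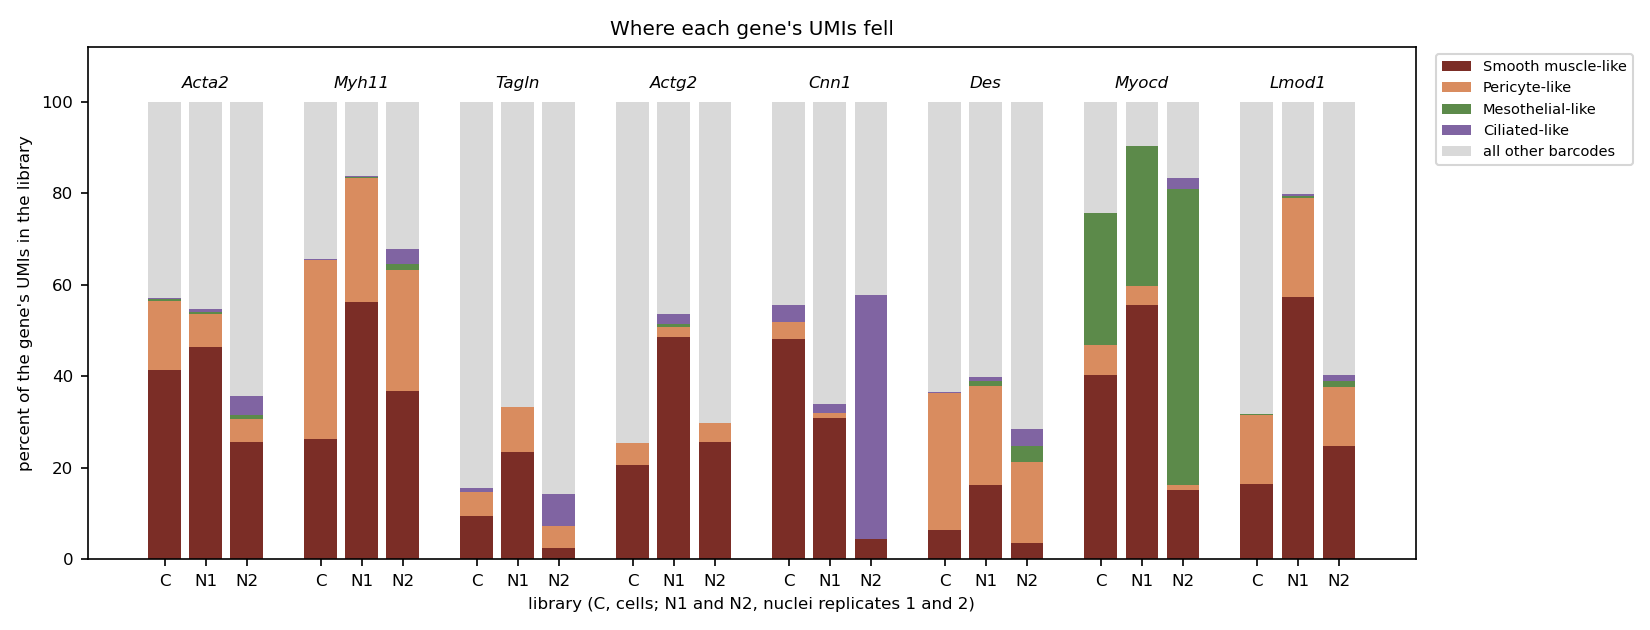
Percent of each gene's UMIs in each library (C, cells; N1 and N2, nuclei of replicates 1 and 2) that lay in smooth muscle-like, pericyte-like, mesothelial-like, ciliated-like and all other barcodes. Mesothelial-like nuclei of replicate 2 hold 64.6% of its Myocd UMIs and ciliated-like nuclei of replicate 2 hold 53.3% of its Cnn1 UMIs.

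Fibroblasts carried little of this programme. Alveolar fibroblast-like barcodes had 22.5, 12.8 and 28.6 CPM of Acta2 and 10.2, 5.23 and 6.91 CPM of Myh11, and Des at 30.5, 8.71 and 14.8 CPM. Myocd was near 0 there, at 2.67, 0.871 and 2.96 CPM. Adventitial fibroblast-like barcodes numbered 214, 55 and 48, and none of the 8 genes had more than 9 UMIs in any library. Tagln was at 14.0 CPM in these cells, and Myocd had no UMI in the class.

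The levels in cells that should lack these genes were taken as the background. Free RNA from broken cells, doublets left in the data and low expression were not told apart in them. Over B cell-like, T/NK/ILC2-like, alveolar macrophage-like, aerocyte capillary-like and venous endothelium-like barcodes, Acta2 ranged from 1.51 to 12.9 CPM in cells, 13.2 to 29.8 CPM in nuclei of replicate 1 and 3.18 to 22.7 CPM in nuclei of replicate 2. Myh11 ranged up to 15.3, 25.4 and 23.9 CPM and Des up to 29.8, 11.7 and 7.57 CPM. In cells Des was at 7.57 CPM in the lowest of these classes, so the background was not 1 even level. Myocd stayed at or below 2.09, 2.3 and 3.45 CPM. The alveolar fibroblast-like level of Acta2 was above this range in cells and in nuclei of replicate 2 and below it in nuclei of replicate 1. Interstitial macrophage-like cells, not among these classes, had 25.3 CPM of Acta2 from 13 UMIs, more than alveolar fibroblast-like cells. The alveolar fibroblast-like level of Des was above the range in nuclei of replicate 2 and within it in nuclei of replicate 1. In cells it was barely above, at 30.5 against 29.8 CPM.

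Per barcode, the programme was patchy even within its own class. Of smooth muscle-like barcodes 40.0% of cells and 43.6% and 23.3% of nuclei had at least 1 Acta2 UMI, at median depths of 2716, 3926 and 2242 UMIs. B cell-like barcodes had 0.412%, 6.13% and 3.14%, at median depths of 2539, 2476 and 1238 UMIs. With every barcode cut down at random to 1000 UMIs (leaving out as shallower 1 smooth muscle-like, 9 pericyte-like and 61 B cell-like nuclei of replicate 2), the smooth muscle-like shares for Acta2 were 23.2%, 25% and 15.3%, and those for Myh11 were 20.6%, 38.6% and 27.1%. Of smooth muscle-like barcodes 33.5% of cells and 31.4% and 53.5% of nuclei had no UMI of any of the 8 genes. At 1000 UMIs, 2 or more of the genes were seen together in 19.4% of smooth muscle-like cells and 35% and 23.5% of nuclei, against 4.79%, 8.57% and 5.45% of pericyte-like barcodes and at most 0.613% of B cell-like barcodes.

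This patchiness followed the clusters within the class. In the nucleus cluster with Ntrk3 among its leading genes, Acta2 stood at 1042 and 720.2 CPM in replicates 1 and 2 and Myh11 at 2320 and 1084 CPM. In the Hhip-led nucleus cluster Acta2 stood at 95.7 and 49.4 CPM and Myh11 at 282.2 and 148.3 CPM. The step was smaller for Myocd, at 592.2 and 339.4 CPM in the first cluster and 205.7 and 128.5 CPM in the second. Tagln, Actg2 and Cnn1 had no UMI in Hhip-led nuclei of replicate 2, and 1, 5 and 1 in those of replicate 1. The single cluster of smooth muscle-like cells, although led by Hhip, had 467.7 CPM of Acta2, between the 2 nucleus clusters.

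**Figure D3:**
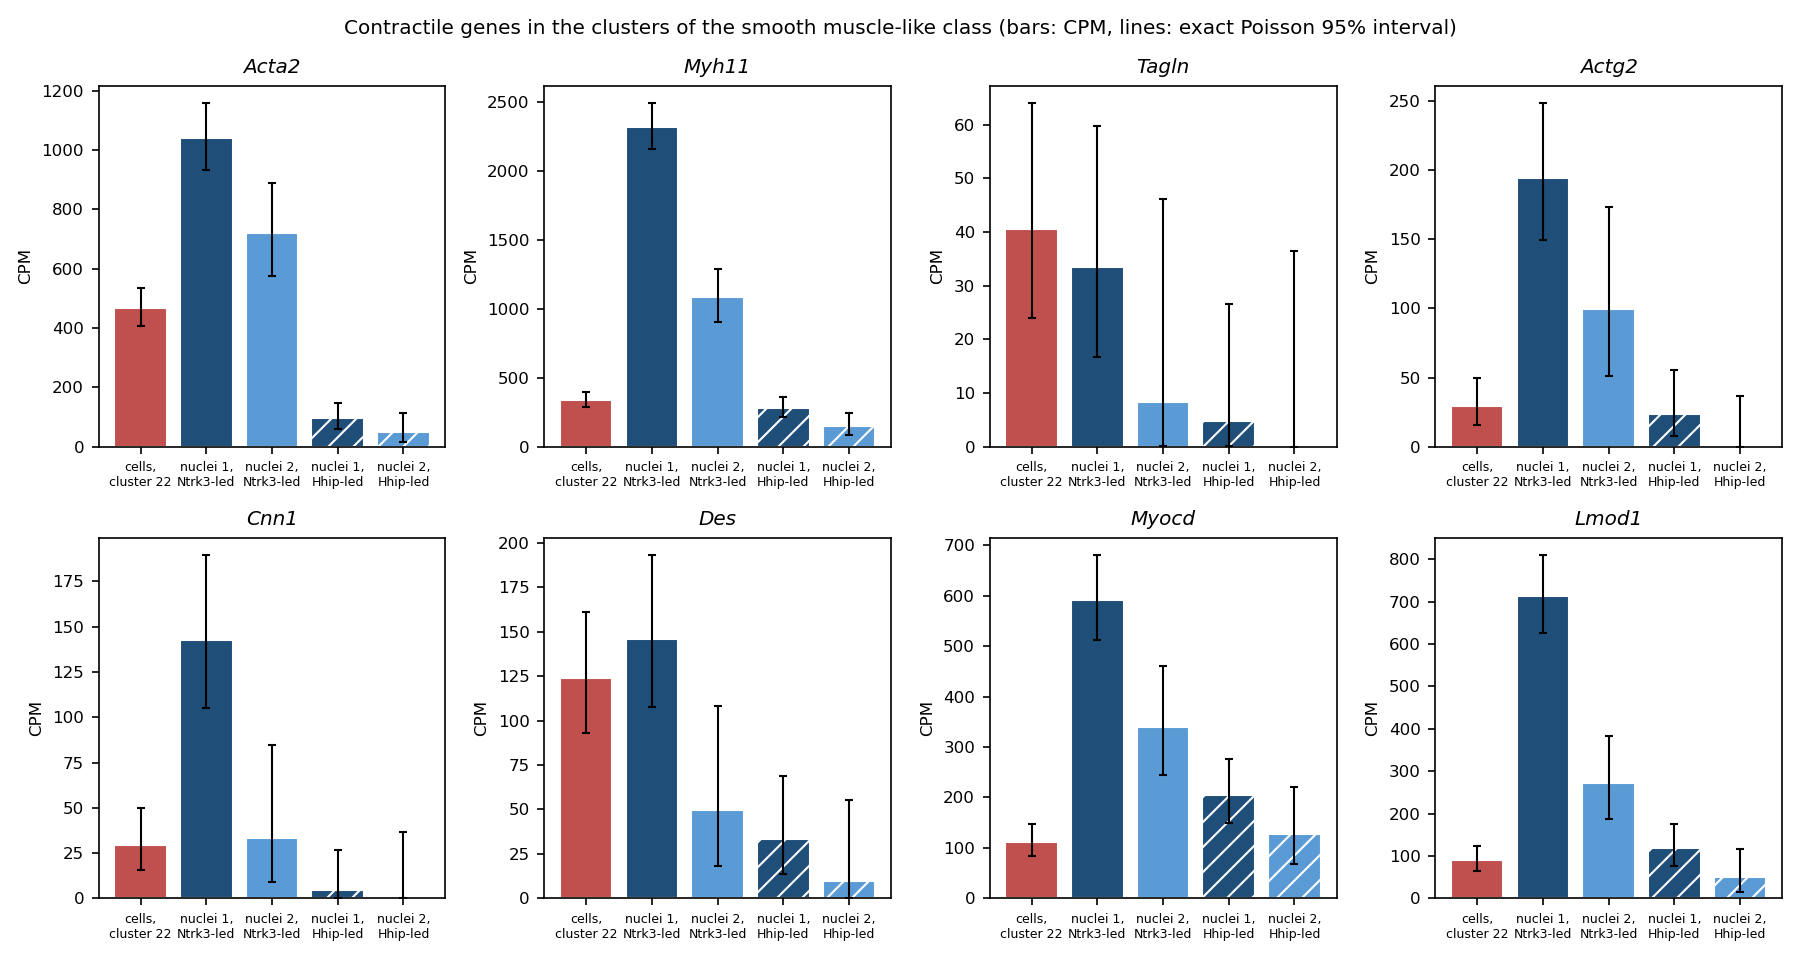
CPM of the 8 genes in the clusters that make up the smooth muscle-like class, 1 of cells and 2 of nuclei in each nucleus library; solid bars are cells or nuclei of the cluster with Ntrk3, hatched bars nuclei of the Hhip-led cluster, and lines the exact Poisson 95% intervals. The Hhip-led nuclei are lower than the other nuclei of the same library in every panel.

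Clustering the smooth muscle-like barcodes again, without the 8 genes or the other contractile lists, separated nuclei with vascular markers (Ntrk3, Mustn1, Rcan2 and Notch3 above the rest; 45 and 19 nuclei) from nuclei with airway muscle or myofibroblast markers such as Hhip, Lgr5 and Wnt5a (60 and 47 nuclei in 2 subclusters). The vascular smooth muscle-like nuclei had 1499 and 1490 CPM of Acta2, 2818 and 1752 CPM of Myh11, 842.1 and 704.7 CPM of Myocd and 1075 and 543.6 CPM of Lmod1. Those with airway or myofibroblast markers had 44.4 and 57.7 CPM of Acta2 and 69.1 and 134.5 CPM of Myh11, but 133.2 and 115.3 CPM of Myocd. The replicates lay in different subclusters of this group, with 51 and 6 nuclei in the one with 7 airway or myofibroblast markers and 9 and 41 in the other, whose leading genes included Iqgap2, Fyb and Wdfy4. In nuclei of replicate 2 the first had 250.3 CPM of Acta2 and 563.1 CPM of Myh11, from 4 and 9 UMIs, and the second 22.7 and 56.8 CPM. A further unnamed subcluster of 16 and 8 nuclei, led by Car3, Mypn, Sorbs2 and Chrm3, had the highest Myh11, at 4330 and 2085 CPM, and the highest Actg2, at 484.5 and 278 CPM. Its leading genes also included Cidec and Myl4, the latter a gene of the cardiac and skeletal muscle markers summed below. The last 2 subclusters, led by Trp63 and by Ctnna2 (19 nuclei of replicate 1 and 12 of replicate 2 in all), had 4 UMIs of the 8 genes between them.

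Among cells, 1 subcluster of 23 carried Notch3 (428.7 CPM) and Mustn1 and stayed unnamed, having fewer than 3 vascular markers. It had 1818 CPM of Acta2, 1360 CPM of Myh11 and 192.2 CPM of Myocd. The other 132 smooth muscle-like cells had 225.4 CPM of Acta2 and 156.5 CPM of Myh11, and Hhip at 1668 to 3347 CPM. Of their 4 subclusters 3 were led by genes of T cells, monocytes or alveolar macrophages, such as Ccl5, S100a8 and Marco. These held 47, 20 and 17 cells and were kept in the class levels and contrasts. Markers of alveolar macrophages, 9 of 9 detected, summed to 1190 CPM in smooth muscle-like cells, against 204.3 and 238.8 CPM in nuclei with 7 and 6 of 9 detected. Club cell markers ran the other way, at 1014 CPM in cells against 18270 and 16790 CPM in nuclei, with 6, 7 and 6 of 7 detected. Cardiac and skeletal muscle markers summed to 33.7 CPM in cells (2 of 9 detected) and 228.5 and 148.7 CPM in nuclei (6 and 7 of 9), Nppa and Ckm being at 0 in all 3. The part of these in the differences between cells and nuclei was not tested.

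Cells were compared with nuclei by edgeR's quasi-likelihood test over all genes, with Benjamini-Hochberg adjustment. Over whole libraries 25.1% of 19784 genes passed an adjusted p of 0.05, and of the 8 genes 1 did, Myocd. It stood at 3.73 CPM in cells and 15.7 and 12.3 CPM in nuclei after TMM scaling, a log2 difference of cells minus nuclei of -1.91 (SE 0.45, edgeR adjusted p = 0.0273). In bulk sums of this kind, fewer cells of a type and less RNA per cell cannot be told apart, and the mesothelial-like barcodes that hold much of the Myocd were 0.662% of cells against 1.49% and 3.35% of nuclei.

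The remaining 7 genes did not pass over whole libraries. Cnn1 had 0.811 CPM in cells against 5.71 and 3.11 CPM in nuclei (log2 difference -2.44, SE 0.71, edgeR adjusted p = 0.0512). Tagln had 5.77 against 1.87 and 1.45 CPM (1.80, SE 0.54, edgeR adjusted p = 0.0553), and Des 26.3 against 12.5 and 6.71 CPM (1.46, SE 0.44, edgeR adjusted p = 0.0581). For these 3 the cells lay outside the range of the nuclei. For Acta2, Myh11, Actg2 and Lmod1 the cells lay between the 2 nucleus libraries, with log2 differences from -0.96 to -0.44 and edgeR adjusted p from 0.381 to 0.568. Without nuclei of replicate 1 these 4 differences turned positive, to between 0.22 and 0.45. DESeq2 called Cnn1 and Myocd, and edgeR without a filter on low counts called Tagln, Cnn1, Des and Myocd.

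Within smooth muscle-like barcodes 14.4% of 9329 genes passed and none of the 8 did by edgeR or DESeq2, although 4 (Myh11, Actg2, Myocd and Lmod1) had an unadjusted edgeR p below 0.05. Lmod1 had a log2 difference of -1.83 (SE 0.61, edgeR adjusted p = 0.0697), Myh11 of -1.63 (SE 0.56, 0.0768), Actg2 of -1.62 (SE 0.66, 0.120) and Myocd of -1.55 (SE 0.49, 0.0577). For each of these 4 both nucleus libraries exceeded the cells. The cells are all of the Hhip-led cluster, and the nuclei of both nucleus clusters. The cells include the subclusters of 47, 20 and 17 cells led by genes of immune cells. For Cnn1 (-0.94, SE 0.80) and Acta2 (-0.16, SE 0.44) the cells lay between the nucleus libraries, and for Des (0.85, SE 0.59) and Tagln (1.40, SE 0.79) above both. Without nuclei of replicate 1 Acta2 stood at 0.30 and Cnn1 at 0.81.

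**Figure D4:**
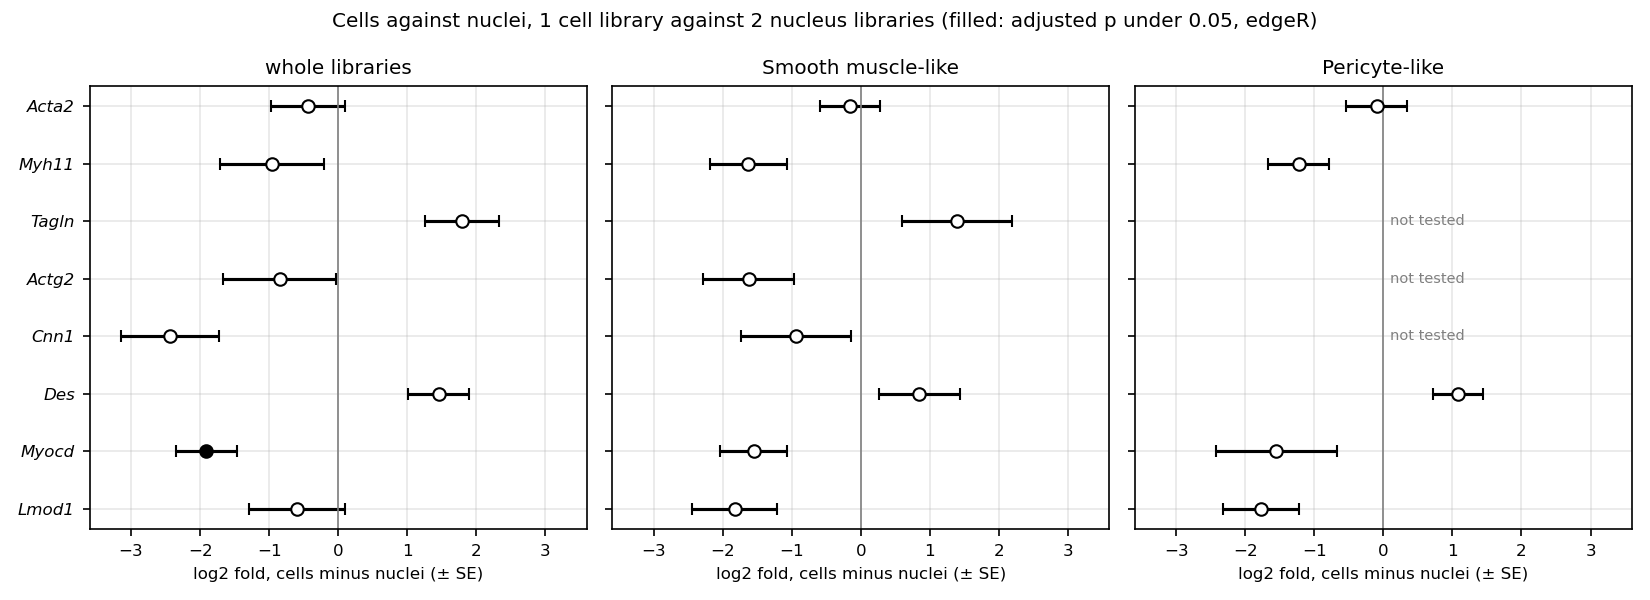
Log2 difference of cells minus nuclei with its SE for the 8 genes over whole libraries and within smooth muscle-like and pericyte-like barcodes; filled points pass an edgeR adjusted p of 0.05. Only Myocd over whole libraries, at -1.91, is filled.

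In a split chosen after the values were seen, the 4 genes with loci over 20 kb (Myh11, Myocd, Lmod1 and Actg2) had smooth muscle-like differences between -1.83 and -1.55, and the 4 with loci under 15 kb (Acta2, Cnn1, Des and Tagln) between -0.94 and 1.40. Over whole libraries the split did not hold, since Cnn1, with a locus of 10415 bases, had the most negative value. The part of locus length in these differences was not tested.

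These calls changed with the clustering and with the filter on low counts. Without the filter Myh11, Myocd and Lmod1 were called lower in cells. With the 8 genes themselves among the clustering genes, 5 were called lower in smooth muscle-like cells (Acta2, Myh11, Actg2, Myocd and Lmod1), and with all contractile lists left out 4 were (the same without Acta2). Over 8 other choices of test, scaling, filter and clustering, Myh11 kept a log2 difference between -3.11 and -1.61 and Lmod1 between -3.04 and -1.80, each called in 5, and Myocd lay between -2.11 and -1.54 and was called in 4. Tagln was higher in cells in all 8 and called in none.

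Comparisons of parts of the class, chosen after the data were seen, were added, of which some set all cells against part of the nuclei. In those the sides were not alike. The cells kept their Notch3-marked subcluster, which held 123 of the 208 Acta2 UMIs of smooth muscle-like cells, whichever nuclei were chosen. All smooth muscle-like cells against the nuclei with Ntrk3 alone (19.3% of all genes called) gave Myh11 at -2.27, Actg2 at -2.30, Myocd at -2.00 and Lmod1 at -2.42, with edgeR adjusted p from 0.000994 to 0.00821. Against the Hhip-led nuclei alone (14.8% called) the called genes were Acta2, higher in cells by 2.74 (SE 0.54, edgeR adjusted p = 1.69e-05), and Des, higher by 2.43 (SE 0.69, edgeR adjusted p = 0.0053), while Myh11 stood at 0.75. Between the Notch3-marked subclusters of cells and nuclei (14.9% called) only Myocd was called, at -1.90 (SE 0.65, edgeR adjusted p = 0.0272), and Acta2 stood at 0.40. Leaving out the nuclei of the 2 subclusters led by Trp63 and Ctnna2 (12.2% called) gave Myh11 at -1.92, Myocd at -1.84 and Lmod1 at -2.10, with edgeR adjusted p from 0.0336 to 0.045. Between the Hhip-rich subclusters (16% called) Acta2 (2.31, edgeR adjusted p = 0.00268) and Des (2.17, edgeR adjusted p = 0.0407, with 0 UMIs in nuclei of replicate 2) were called.

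**Figure D5:**
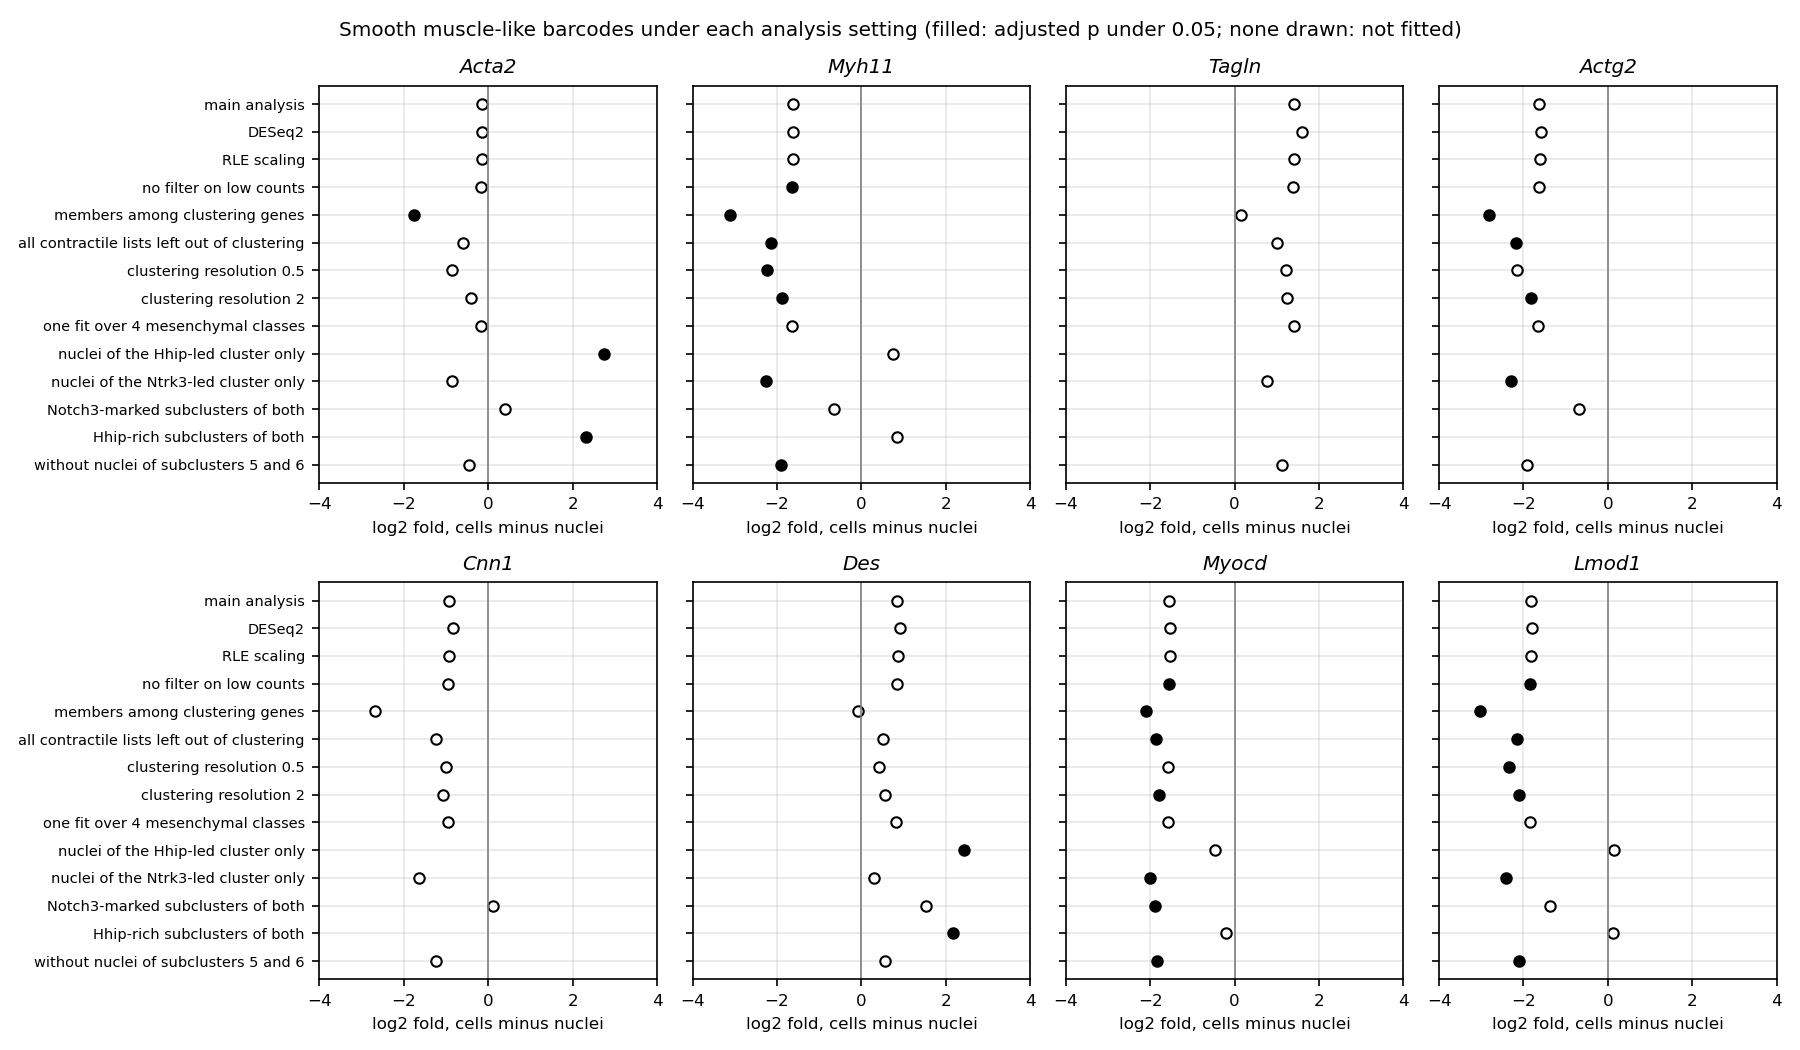
Log2 difference of cells minus nuclei within smooth muscle-like barcodes for the 8 genes under the main analysis and 13 other settings; filled points pass an adjusted p of 0.05. Lmod1 and Myh11 lie left of 0 except where nuclei are limited to the Hhip-rich groups, and Acta2 lies right of 0 there and between the Notch3-marked subclusters.

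Within pericyte-like barcodes 16.1% of 11755 genes passed. Of the 8 genes 5 were tested and none was called by edgeR or DESeq2, with 3 at an unadjusted edgeR p below 0.05. Lmod1 had a difference of -1.77 (SE 0.56, edgeR adjusted p = 0.0546) and was called with RLE scaling or without a filter. Myh11 had -1.23 (SE 0.45, 0.0835 by edgeR) and Des 1.08 (SE 0.36, 0.067 by edgeR). The difference between the smooth muscle-like and the pericyte-like contrast was called by edgeR for none of the 8 genes (0.462% of 10382 genes called), none having an unadjusted p below 0.05. For Myh11 it was -0.34 (SE 0.42), for Lmod1 -0.06 (SE 0.56) and for Des -0.22 (SE 0.57), which leaves room for sizeable differences either way.

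Alveolar fibroblast-like barcodes (16% of 14283 genes called) had 6 of the genes tested and none called by edgeR or DESeq2, with 3 at an unadjusted p below 0.05. The contrast differed from that of smooth muscle-like barcodes for Lmod1, by -3.68 (SE 0.59, edgeR adjusted p = 0.000111), and for Myh11, by -2.25 (SE 0.59, edgeR adjusted p = 0.0394), where 0.972% of 13680 genes were called. In alveolar fibroblast-like barcodes Lmod1 had 30 UMIs in cells (16.04 CPM) against 13 and 13 in nuclei (3.77 and 4.28 CPM), the opposite order to smooth muscle-like barcodes. With RLE scaling Myh11 was no longer called (edgeR adjusted p = 0.139), and without nuclei of replicate 1 the difference was -1.35 for Myh11 and -2.66 for Lmod1.

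In the other classes of at least 50 barcodes, 31 pairs of class and gene were tested in 10 classes, the alveolar fibroblast-like ones included, and 5 were called. Of all genes tested, 17.2% were called in AT1-like, 35.5% in AT2-like, 27.6% in aerocyte capillary-like, 41.3% in alveolar macrophage-like, 19.7% in B cell-like, 26.6% in interstitial macrophage-like, 20.8% in mesothelial-like, 24.3% in T/NK/ILC2-like and 19.9% in venous endothelium-like barcodes. Des was higher in cells in AT2-like (19.98 against 5.25 and 3.48 CPM before TMM scaling; log2 difference 2.14, edgeR adjusted p = 0.0115), aerocyte capillary-like (29.0 against 11.7 and 7.54 CPM; 1.43, 0.041 by edgeR) and venous endothelium-like barcodes (37 UMIs against 7 and 0; 2.35, 0.0332 by edgeR). The venous value depends on how a library at 0 is treated, being 1.64 without nuclei of replicate 2 and 7.64 without nuclei of replicate 1. Tagln was higher in AT2-like cells, at 7.49 against 1.52 and 1.24 CPM (2.37, edgeR adjusted p = 0.0485). Acta2 was lower in B cell-like cells, with 2 UMIs against 13 and 12, or 1.51 against 29.8 and 22.7 CPM, a ratio of nuclei to cells of 19.7 (4.46 to 180) and 15 (3.34 to 138) by counting error. The aerocyte, venous and B cell classes are among those that should lack these genes, and the part of free RNA in these calls was not tested. In mesothelial-like barcodes Myocd was not called (-0.88, SE 0.41, edgeR adjusted p = 0.115). DESeq2 called none of the 5.

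The other genes of the pathway were counted in smooth muscle-like barcodes, where 9.92% of all genes were called higher and 4.44% lower in cells. Many of the differences below were not confined to this class. Over whole libraries and in pericyte-like barcodes the log2 difference was 3.64 and 2.45 for Actb and 2.65 and 1.86 for Tagln2. It was 3.06 and 2.14 for Vim and 3.48 and 3.29 for Klf4. The other called genes named below also kept their sign in both, except Pgm5 (1.83) and Itga8 (0.52) in pericyte-like barcodes. Of the other actins, the cytoplasmic actin genes Actb and Actg1 were both higher in smooth muscle-like cells. Actb had 4186 against 490.9 and 524 CPM after TMM scaling (log2 difference 3.05, SE 0.41, edgeR adjusted p = 0.00113) and Actg1 320.3 against 88.4 and 76.1 CPM (1.94, SE 0.40, edgeR adjusted p = 0.00888). Actc1, cardiac α-actin, had 19.6 against 78.5 and 53.7 CPM and was not called (-1.77, SE 0.65, edgeR adjusted p = 0.0896), and the skeletal actin gene Acta1 was held by the cell table only. The list thus gave 2 of 3 tested genes higher and none lower in cells, while the 8 contractile genes gave none in either direction; their medians were 1.94 and -1.25, against -0.05 for all genes tested.

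Thin filament and actin-binding genes gave 1 higher and 2 lower of 19 tested, with a median of -0.11. Tagln2, the transgelin of non-muscle cells, was higher in cells (2.16, edgeR adjusted p = 0.0061). Ldb3, a Z-disc protein, was lower in cells (-2.88, 0.0154 by edgeR), as was the α-actinin gene Actn1 (-1.86, 0.0198 by edgeR). Among 14 genes of myosin, its kinase and its phosphatase 3 were higher and 2 lower, with a median of -0.04. Light chain genes were among the higher ones, with Myl12a at 2.46 (edgeR adjusted p = 0.00909) and Myl9 at 2.00 (0.0361 by edgeR), and the non-muscle heavy chain gene Myh14 was lower (-3.79, 0.0105 by edgeR). It had 2 UMIs in cells against 35 and 17, a ratio of nuclei to cells of 14.5 (3.71 to 124) and 17 (4.04 to 152) by counting error. Smooth muscle-like nuclei had 68.7 and 76.1 CPM of Myh14, below the 240.8 and 210.2 CPM of the whole nucleus libraries. The log2 difference of Myh14 was -3.23 over whole libraries and -2.58 in pericyte-like barcodes. The part of free RNA in these values was not tested.

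Dense plaque and adhesion genes gave 2 higher and 6 lower of 18 tested, with a median of -1.30. Vim, the intermediate filament vimentin, was higher in cells, at 550.1 against 111.9 and 44.8 CPM (2.73, edgeR adjusted p = 0.00371). Pgm5 (-3.64, 0.0337 by edgeR) and the integrin gene Itga8 (-2.86, 0.0156 by edgeR) were lower. The channel and cGMP list gave 0 higher and 3 lower of 14 tested, median -1.02. These were the calcium release channel gene Ryr2 (24.4 against 467.3 and 300.1 CPM; -3.97, edgeR adjusted p = 0.00131), the chloride channel gene Ano1 (-3.23, 0.00447 by edgeR) and the potassium channel gene Kcnma1 (-2.10, 0.0144 by edgeR). Ano1 had 176.7 and 147.8 CPM in smooth muscle-like nuclei of replicates 1 and 2, against 74.7 and 162.2 CPM over the whole nucleus libraries. Contraction receptors gave no call by edgeR among 6 tested genes.

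Transcriptional regulators gave 1 higher and 2 lower of 18 tested, median -0.26. Klf4, a repressor of the muscle programme, was higher in cells, at 344.7 against 25.5 and 26.9 CPM (3.71, edgeR adjusted p = 0.000767), and Tead1 was lower (-1.54, 0.0315 by edgeR). The serum response factor gene Srf had 39.1 against 7.85 and 8.96 CPM, from 16, 4 and 2 UMIs, and was not called (2.20, edgeR adjusted p = 0.119). Its coactivator genes Mrtfa (0.13, 0.851 by edgeR) and Mrtfb (-0.69, 0.255 by edgeR) were not called either. Over whole libraries Srf was called higher in cells (1.81, edgeR adjusted p = 0.0153).

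The likeness of other genes to each member was measured as Pearson's r of log2(CPM + 1) over 42 points, 14 classes in each of 3 libraries, among 9914 genes that reached 50 CPM in some class. The points of 1 library share its depth and background, and some of these genes helped to form the clusters, so the values only describe. Closest to the mean of the 8 genes were Kcnma1 (0.87), Hhip (0.83), Syt1 (0.83), Cspg4 (0.82) and Mark1 (0.82). Acta2 was closest to Hhip (0.77), Aspn (0.75) and Kcnma1 (0.75), and Myh11 to Col8a1 (0.86), Mark1 (0.84) and the pericyte marker Cspg4 (0.81). Des (0.83) and Lmod1 (0.79) both had Cspg4 first, followed by Mboat2 (0.78) and Cstdc2 (0.76) for Des and by Rims1 (0.79) for Lmod1.

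Tagln was closest to Lgr5 (0.76), Mat2a (0.74) and Zfp131 (0.73), Actg2 to Lgr6 (0.75), Zfp536 (0.73) and Stac (0.71), and Cnn1 to the cardiac actin gene Actc1 (0.71), Lgr6 (0.70) and Ptprz1 (0.68). Within the set, Myh11 and Lmod1 were the closest pair (0.82), followed by Acta2 and Myh11 (0.79), and Tagln and Cnn1 the most distant (0.25).

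Myocd was closest to Mapk4 (0.87), Gm12295 (0.87) and Nkain2 (0.83), each of which had its 2 highest classes, in every library, in smooth muscle-like and mesothelial-like barcodes. Gm12295 is annotated as a lincRNA at chr11:65277654-65365798 on the minus strand, the strand of Myocd, its 3′ end lying 7665 bases before the 5′ end of that gene. It had 154.2 and 67.6 CPM in smooth muscle-like and 71.05 and 41.2 CPM in mesothelial-like nuclei of replicates 1 and 2, and at most 6.53 CPM in the 11 classes other than these and pericyte-like. In cells it had 6 UMIs in the smooth muscle-like class (13.5 CPM) and 9 in the mesothelial-like class (36.2 CPM).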

How the data were processed

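The authors deposited 2 tables of whole-number counts, genes by barcodes, taken here as UMI counts. The submitters' processing notes name STAR 2.5.3a and the build mm10. For the counting program, its annotation and its use of introns and strand, the entry is "not given in the sources used here". The members and all gene lists were chosen with earlier results of these data known.

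Barcodes with at least 400 genes and at most 20% mitochondrial UMIs were kept, and 54 and 180 marked doublets of the nucleus libraries removed (7 of 11934 cells were marked, under 0.5%, and kept). Each table was clustered alone (Leiden, resolution 1, 2000 variable genes without the 8 members, 30 components, 20 neighbours; leidenalg 0.10.2). A class needed 3 markers at 2-fold. CPM are summed counts over all UMIs of the class in that library. Counts summed per library were tested with edgeR 4.0.16 (TMM, filterByExpr), the cell library having no replicate and 1 residual degree of freedom; the SE is the log2 difference over the root of F. DESeq2 1.42.0, other scalings, filters and clusterings were alternatives. Named genes are the 8 members, the 3 most like each, the 5 most like their mean, and per list up to 3 genes with the largest called difference and 50 CPM, with Acta1, Actc1, Actb, Actg1, Srf, Mrtfa and Mrtfb in any case. Of these, 1 gene is not reported here. In simulated data with 50 genes changed per fold size, edgeR recovered 8, 46, 92 and 100% of 2, 4, 8 and 16-fold changes among 8603 genes of the smooth muscle-like class, with 8 false calls, and 25% of 200 8-fold interactions. The changed genes were drawn only from those with at least 20 UMIs expected in the smallest sum, and all genes had the same dispersion. Tagln, Actg2, Cnn1 and Des fell below that limit in the smooth muscle-like class, so these shares do not apply to them.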

Additional observations from a re-analysis of the deposited data

Results flagged for a closer look

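The contrast of cells and nuclei differed between smooth muscle-like and alveolar fibroblast-like barcodes, by the interaction term of edgeR with library as a block, for 2 of the 8 genes. For Lmod1 the difference of the contrasts was -3.68 on the log2 scale (SE 0.59, edgeR adjusted p = 0.000111), with a lower level in smooth muscle-like cells than nuclei (89.95 CPM against 482.9 and 171.2) and a higher one in alveolar fibroblast-like cells than nuclei (16.04 CPM against 3.77 and 4.28). For Myh11 it was -2.25 (SE 0.59, edgeR adjusted p = 0.0394), with 339.5 CPM against 1529 and 657.9 in the first class and 10.2 CPM against 5.23 and 6.91 in the second. B cell-like, T/NK/ILC2-like, alveolar macrophage-like, aerocyte capillary-like and venous endothelium-like cells had up to 8.85 CPM of Lmod1 and 15.3 CPM of Myh11. The Lmod1 level of alveolar fibroblast-like cells lay above that range and the Myh11 level within it. AT2-like cells, not among those classes, had 11.85 CPM of Lmod1 after TMM scaling, from 19 UMIs. On that scale alveolar fibroblast-like cells had 15.6 CPM, from 30 UMIs. The part of free RNA in the difference was not tested. Lmod1 stood at -2.66 without nuclei of replicate 1 and -4.40 without nuclei of replicate 2, and Myh11 at -1.35 and -3.03. With RLE scaling Myh11 was no longer called (edgeR adjusted p = 0.139). The smooth muscle-like cells are all of the Hhip-led cluster and the nuclei of 2 clusters, and against the Hhip-led nuclei alone the smooth muscle-like contrast was 0.14 for Lmod1 and 0.75 for Myh11. That comparison was chosen after the data were seen and kept all the cells, those of the Notch3-marked subcluster included. The part of the make-up of the class in the difference was not tested.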

How the results depend on the processing

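No paired analysis was possible because the cell library carries no replicate number and the groups share fewer than 2 numbers. Leaving out a nucleus library leaves no residual degrees of freedom, so it gives values only; Myocd over whole libraries stayed between -2.07 and -1.72, while Acta2 (-0.92 to 0.29), Myh11 (-1.63 to 0.33), Actg2 (-1.46 to 0.22) and Lmod1 (-1.19 to 0.45) crossed 0 there, as did Acta2 (-0.49 to 0.30) and Cnn1 (-1.56 to 0.81) within smooth muscle-like barcodes. The number of the 8 genes called over whole libraries was 1, and it was 2 by DESeq2, 4 without a filter and 1 with RLE scaling. Within smooth muscle-like barcodes it was 0, and it was 0 by DESeq2, with RLE scaling and in 1 fit over 4 classes, 3 without a filter, 5 with the members kept in clustering, 4 with all contractile lists left out, 2 at resolution 0.5 and 4 at resolution 2. In subsets chosen after seeing the data it was 2 for Hhip-led nuclei, 4 for nuclei with Ntrk3, 1 for Notch3-marked subclusters, 2 for Hhip-rich subclusters and 3 without nuclei of subclusters 5 and 6. Within pericyte-like barcodes it was 0, and 1 with RLE scaling or without a filter. Over the other classes 5 pairs were called, and 0 by DESeq2, 4 with RLE scaling and 6 without a filter. The interaction with alveolar fibroblast-like barcodes called 2 genes, and 1 with RLE scaling. Directions in smooth muscle-like barcodes turned for Acta2 (2.74 with Hhip-led nuclei, 0.40 with Notch3-marked and 2.31 with Hhip-rich subclusters), for Myh11 (0.75 with Hhip-led nuclei and 0.83 with Hhip-rich subclusters), for Lmod1 (0.14 and 0.12 in the same 2), for Cnn1 (0.10 with Notch3-marked subclusters) and for Des (-0.093 with the members kept in clustering). The cause of these changes was not tested. The smooth muscle-like class came first in 18 to 21 of 24 cases under the 5 other clusterings or averages, against 19. A single class of 86 to 155 barcodes limits the sparse genes most, with Tagln resting on 1 UMI in nuclei of replicate 2. Of the 29 places in the lists of likeness, some held by the same gene, 17 kept their gene with a pseudocount of 10 in place of 1. For Tagln, Des and Lmod1 only 1 gene of 3 was kept in each case. Cspg4, first for Des and Lmod1, then came second for Des and was no longer listed for Lmod1.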
